A study of Mus musculus with 4 samples.

Results

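The complement system is a cascade of plasma proteins that marks microbes and damaged cells for removal, and hepatocytes make most of its soluble components. It is started by the classical pathway (C1, bound to antibody), the lectin pathway (collectins and ficolins with the MASP proteases) or the alternative pathway, and all of them assemble a C3 convertase, an enzyme that cleaves C3. Cleavage of the fifth component then starts assembly of the membrane attack complex, a pore in the target membrane, and regulators such as C4b-binding protein hold the convertases in check. Complement genes were chosen here by name, as components and regulators of this cascade. Of 9 genes named, 8 were listed among the 8797 genes measured (C4b, C2, Cfb, C8a, C8b, C4bp, Masp2 and Hc), and C3 was not analysed here. A B6-allele frequency was given for 7 of the 8, and 3632 genes in all had one.

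Polyadenylated liver RNA was sequenced from 4 female F1 hybrids aged 5 months, of which 2 came from an MSM dam and B6 sire (the MSM-mother cross) and 2 from a B6 dam and MSM sire (the B6-mother cross). The parents are inbred strains from different subspecies of the house mouse, neither the labels nor the methods name any treatment, and every mouse carries 1 chromosome set of each strain. A strain difference that acts in cis moves the B6-allele frequency the same way in both crosses, whereas an effect of the parent of origin moves it in opposite ways. Each mouse has an expression value per gene in FPKM (fragments scaled to transcript length and to the mapped fragments of the library) and a B6-allele frequency, which is the B6 part of the reads assignable to an allele. No read counts are among the values. The depth behind a frequency is therefore unknown, and no interval can be given for the frequency of a single mouse. The labels number the mice of a cross as replicates, and whether they were littermates is not stated. Hepatocyte markers were present at a summed 13276 to 17167 FPKM over 6 listed genes, while none of 5 lymphocyte markers was listed. In whole liver, more cells of a type and more mRNA per cell cannot be told apart.

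The strongest allelic differences of the set with the same direction in every mouse were those of C8a and C8b, which encode the alpha and beta chains of complement component 8, a part of the membrane attack complex. Both genes lie on chromosome 4 of mm10, C8b from 104766317 to 104804548 on the plus strand and C8a from 104815679 to 104876398 on the minus strand. They are thus read toward each other, with 11.1 kb between their ends. The sequences around their start sites are shown because each mouse expressed both genes mainly from the B6 allele, and the start sites are where reading of each allele begins. The sequences are those of RefSeq for the GRCm38.p6 assembly, which is the B6 genome, and the MSM bases were not used here. Each window holds 250 bases before and 50 bases after the annotated start, and capitals mark the motif matches given after them.
C8a promoter, chr4:104876349-104876648, minus strand: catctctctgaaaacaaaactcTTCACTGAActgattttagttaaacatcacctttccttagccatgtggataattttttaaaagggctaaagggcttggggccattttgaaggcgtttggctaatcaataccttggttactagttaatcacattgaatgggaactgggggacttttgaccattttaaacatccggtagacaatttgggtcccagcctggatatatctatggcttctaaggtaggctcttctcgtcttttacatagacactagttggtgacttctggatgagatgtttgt
C8b promoter, chr4:104766067-104766366, plus strand: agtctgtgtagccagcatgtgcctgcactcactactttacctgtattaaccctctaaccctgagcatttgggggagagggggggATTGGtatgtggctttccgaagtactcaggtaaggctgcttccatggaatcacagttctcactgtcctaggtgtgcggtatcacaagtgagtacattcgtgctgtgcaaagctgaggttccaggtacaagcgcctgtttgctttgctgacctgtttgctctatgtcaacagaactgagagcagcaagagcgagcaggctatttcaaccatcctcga
Both strands were searched for the TATA box (TATAAA), the CCAAT box (CCAAT), a C/EBP motif (TTNNGCAA), a STAT motif (TTCNNNGAA) and the HNF1 and NF-kB consensus motifs, and in these windows no matches overlapped. The C8a window held 1 match, to the STAT letters, which occur in 8.3% of 32851 promoter windows of this length. In the C8b window there was 1 match, to CCAAT on the opposite strand, found in 37.4% of the windows. The STAT match of C8a spans positions -228 to -220 from the start, and the CCAAT match of C8b spans -166 to -162. The other motifs, without a match in these windows, occur in 13.6% (TATA box), 10.8% (C/EBP), 0.155% (NF-kB) and 0.00913% (HNF1) of all windows. Of the 8 listed genes, 5 had a promoter entry.

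The B6 allele of C8a contributed 0.775 and 0.738 of its assigned reads in the MSM-mother cross and 0.775 and 0.751 in the B6-mother cross. All 4 mice thus stood well above 0.5, and the crosses overlapped. The mean was 0.760 ± 0.0187 (SD, n = 4 mice), that is 3.17 B6 transcripts for each MSM transcript (95% interval 2.68 to 3.74). On the scale of log2 odds the value was 1.66 (SE 0.08, limma adjusted p = 0.00397). Its distance from 0.5 ranked 155 among the 3632 genes, and 2.62% of genes had a mean frequency of 0.75 or more. C8a lay just below 0.8, the value from which the study's methods call a gene B6-biased.
C8b had frequencies of 0.602 and 0.606 in the MSM-mother cross and 0.651 and 0.649 in the B6-mother cross. Its mean was 0.627 ± 0.0267 (SD, n = 4 mice), and the log2 odds were 0.75 with an SE of 0.04 (limma adjusted p = 0.00476). This is a ratio of 1.68 B6 transcripts per MSM transcript (95% interval 1.55 to 1.83), and all 4 mice were above 0.5. The call was lost when replicate 1 or 2 of the B6-mother cross was left out, while the log2 odds stayed at 0.75 and 0.76.
In every mouse the frequency of C8a exceeded that of C8b, by 0.173 and 0.132 in the MSM-mother cross and by 0.124 and 0.102 in the B6-mother cross. The mean difference of 0.133 ± 0.0300 (SD, n = 4 mice) reached the smallest exact two-sided sign-flip p that 4 mice allow, which was 0.188 after Benjamini-Hochberg adjustment over 3 pairs of neighbouring genes and so cannot pass 0.05.

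Genes near C8a and C8b were compared to see how far along the chromosome the B6 share extended. The next listed genes with a frequency were Oma1, 1453 kb from C8b between starts, and Prkaa2, 214 kb from C8a. Oma1 had a mean frequency of 0.530 ± 0.0472 (SD, n = 4 mice, limma adjusted p = 0.108) and Prkaa2 one of 0.488 ± 0.0221 (limma adjusted p = 0.48). Neither passed the test against 0.5. The gene after Prkaa2, Ppap2b at 0.391 Mb from C8b, was again toward B6, with a mean of 0.590 and mice from 0.579 to 0.604 (limma adjusted p = 0.00755). Within 5 Mb of C8b, 45 of 48 listed genes had a frequency, and the means of the 43 genes other than C8a and C8b ran from 0.334 to 0.678. Of these, 17 differed from 0.5 at a limma adjusted p under 0.05, with means both above and below it, beside 36.2% of all genes.

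**Figure D1:**
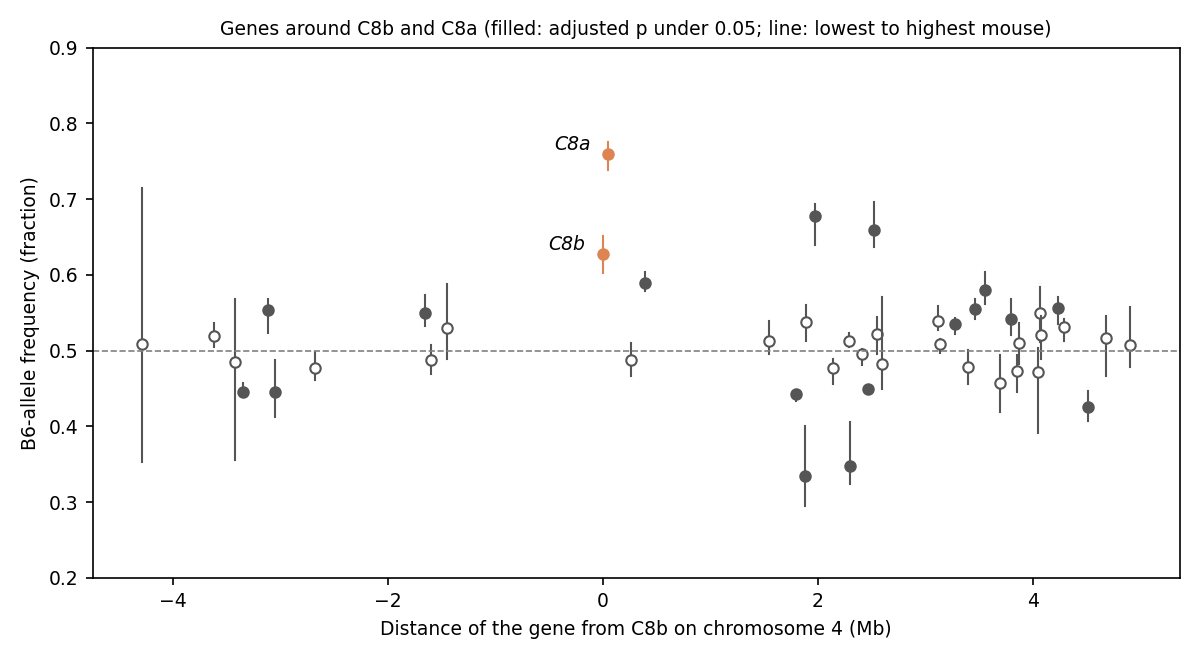
B6-allele frequency (fraction) of the 45 genes within 5 Mb of C8b that had one, against their distance from C8b in Mb. Points are means of the crosses, filled where the limma adjusted p is under 0.05, and lines run from the lowest to the highest mouse. C8a at 0.760 stands above all 43 other genes, which end at 0.678, and C8b at 0.627 lies within their range.

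The genes of the C3 convertases are neighbours on chromosome 17, in the major histocompatibility complex. Cfb (34856374 to 34862518) encodes factor B, the protease of the alternative pathway convertase, C2 (34862604 to 34898265) the protease of the classical and lectin pathway convertase, and C4b (34728380 to 34743882) the protein to which C2 binds. All are on the minus strand, and only 0.085 kb lies between the annotated ends of Cfb and C2.
Cfb had frequencies of 0.540 and 0.544 in the MSM-mother cross and 0.550 and 0.549 in the B6-mother cross, the narrowest range of the set at 0.0104. The mean of 0.546 ± 0.00488 (SD, n = 4 mice) corresponded to 1.20 B6 transcripts per MSM transcript (95% interval 1.10 to 1.31), and its log2 odds of 0.27 (SE 0.04) had a limma adjusted p of 0.023. All 4 mice were above 0.5 and above the median over all genes of 0.510. Without any one of the mice the log2 odds stayed between 0.26 and 0.27. The call was lost without each of them, in fits that leave 1 mouse in a cross.
C2 had frequencies of 0.504 and 0.501 in the MSM-mother cross and 0.478 and 0.524 in the B6-mother cross. They lay on both sides of 0.5, and the log2 odds were 0.01 (95% interval -0.19 to 0.21, limma adjusted p = 0.923). C4b had 0.477 and 0.495 in the MSM-mother cross and 0.494 and 0.499 in the B6-mother cross, with all 4 mice slightly under 0.5. Its log2 odds of -0.05 (95% interval -0.19 to 0.09) did not differ from 0 by more than the spread between mice (limma adjusted p = 0.444). C2 was below Cfb in every mouse, with a mean difference (C2 minus Cfb) of -0.0442 ± 0.0203 (SD, n = 4 mice, exact sign-flip p = 0.188 after adjustment), and the mean difference of C4b minus C2 was -0.0103 ± 0.0197, with C4b higher in 1 mouse (exact p = 0.375).
An annotated readthrough gene, Gm20547, spans Cfb and C2 on the same strand and was not among the listed genes. It shares 81.4% of the 50-base stretches of the longest Cfb transcript and 58.0% of those of C2, so reads of these exons fit both annotations. C4b shares 35.2% of its 50-base stretches with C4a, its neighbouring copy, so reads of these stretches fit both genes. How far this alters the frequency of C4b was not tested. C4a was listed lower, at a mean of 9.56 FPKM against 256 FPKM for C4b, and had frequencies of 0.551 and 0.583 in the MSM-mother cross and 0.484 and 0.443 in the B6-mother cross. C8a, C8b, C4bp, Masp2 and Hc shared no stretch of this length with a transcript of another gene. Genes on the opposite strand overlap C2 (Zbtb12), C8a (Gm17662), Masp2 (Tardbp) and Hc (the antisense gene Gm13449). The authors set the strand of the library in the alignment, and the methods do not state it for the counting of alleles, so reads of these overlaps are uncertain.
The nearest other genes with a frequency around the convertase genes were Atf6b (0.525 ± 0.0900) and C4a beside C4b, Dxo (0.354 ± 0.155) beside Cfb and Ehmt2 (0.490 ± 0.0307) beside C2. None of them passed the test against 0.5, with limma adjusted p-values of 0.527, 0.395, 0.215 and 0.644, and Dxo varied most between mice, from 0.211 to 0.5.

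C4bp on chromosome 1 (130634773 to 130661632, minus strand) encodes C4b-binding protein, which speeds the decay of the classical pathway convertase. Its frequencies were 0.570 and 0.512 in the MSM-mother cross and 0.537 and 0.534 in the B6-mother cross. All 4 mice were above 0.5, with a mean of 0.538 ± 0.0239 (SD, n = 4 mice), but the log2 odds of 0.22 (95% interval -0.01 to 0.45) did not pass the test (limma adjusted p = 0.109). The nearest genes with a frequency, Cd55 (0.547 ± 0.0439) and Pfkfb2 (0.515 ± 0.0218), also did not pass the test, with limma adjusted p-values of 0.0562 and 0.263. Masp2 on chromosome 4 (148602554 to 148615499, plus strand), the lectin pathway protease that cleaves C4 and C2, had no frequency. Of the 21 other genes listed within 1 Mb of it, 12 had one, the nearest being Tardbp (0.536 ± 0.0440, limma adjusted p = 0.269) and Fbxo6 (0.609 ± 0.0428, limma adjusted p = 0.0367).

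Hc on chromosome 2 (34983331 to 35061438, minus strand) encodes the fifth complement component, whose larger fragment starts the membrane attack complex. Its frequency was 1 in both mice of the MSM-mother cross and 0.2 and 0.25 in the B6-mother cross, so the crosses lay on opposite sides of 0.5. The mean over crosses of 0.613 ± 0.448 (SD, n = 4 mice) therefore describes no single mouse. The cross difference of 8.42 in log2 odds (SE 0.18, limma adjusted p = 0.0101) was the only one called among the 7 genes, against 0.0826% of all genes. Its size depends on the limits set on frequencies of 0 and 1, and was 6.04 (limma adjusted p = 0.0374) with limits of 0.05 and 0.95 in place of 0.01 and 0.99. Both MSM-mother mice were held at the upper limit, so their spread entered the test as 0. The SE and p-value therefore rest on the B6-mother mice and on the variance that limma shares across genes. The call was lost when any of the 4 mice was left out (limma adjusted p = 0.0677 to 0.22).
Hc was also the only one of the 7 genes that lay in the proximal part of its chromosome, below 100 Mb on chromosomes 1 to 15 and X or 10 Mb on 16 to 19, where 1.98% of listed genes had a frequency. Beyond these coordinates 89.8% did. None of the 13 other genes listed within 1 Mb of Hc had a frequency, and the nearest on either side were Ass1 (3513 kb) and F2 (56642 kb). Ass1 had frequencies of 0.534 and 0.501 in the MSM-mother cross and 1.000 and 0.518 in the B6-mother cross. F2 had 0.75 and 0.5 against 0 and 0.353. Ass1 thus varied widely between the mice of the B6-mother cross, and F2 between the mice of each cross. The 3 genes closest to Hc in their frequencies over the 4 mice, by Euclidean distance, were Impact (0.231), Gsta3 (0.283) and Aass (0.347). Impact, an imprinted gene expressed from the paternal allele, had 0.979 and 0.944 in the MSM-mother cross and 0.0446 and 0.0899 in the B6-mother cross. Gsta3 (1, 1, 0.333 and 0) and Aass (0.8, 1, 0.333 and 0) are, like Hc, proximal, and their values are in the order used above, MSM mother first. The part that low numbers of allele-assigned reads play in the value of Hc was not tested.

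**Figure D2:**
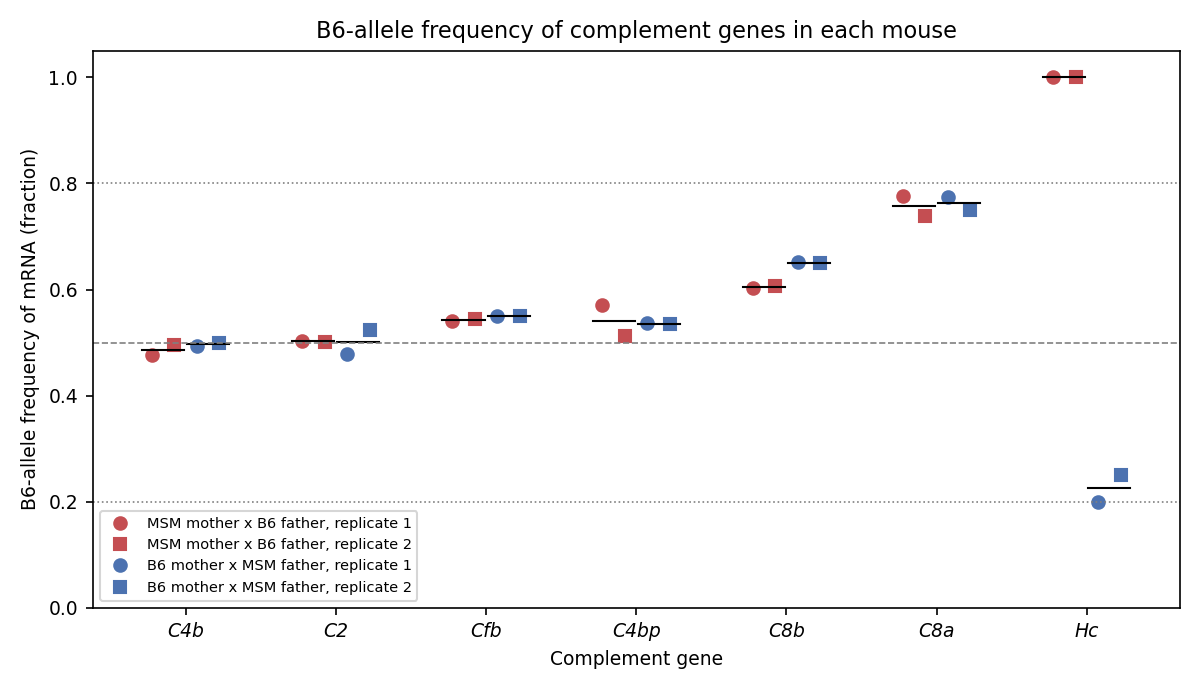
B6-allele frequency (fraction) of the 7 complement genes that had one, with a point for each of the 4 mice and a short line for the mean of each cross. The dashed line is 0.5 and the dotted lines are 0.2 and 0.8. C8a and C8b sit above 0.6 in every mouse, the genes of the convertases lie near 0.5, and Hc is at 1 in the MSM-mother cross and at 0.2 and 0.25 in the B6-mother cross.

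Of the 7 genes, 4 (C8a, C8b, Cfb and Hc) differed from 0.5 at a limma adjusted p under 0.05, all toward B6, while 36.2% of all 3632 genes did, 22.6% toward B6 and 13.6% toward MSM. Hc reaches this call through a mean of opposite values. All 4 mice were above 0.5 in C8a, C8b, Cfb and C4bp, that is in 4 of the 7 genes and in 33.9% of all genes, and all were below 0.5 in C4b (22.8% of all genes). The median log2 odds of the 7 genes was 0.27, beside 0.06 over all genes. None of the 7 passed 0.8 or 0.2 in the mean of the crosses, as 1.84% and 1.35% of all genes did. With so few genes, these counts describe the set and do not set it apart.
Between the crosses, and apart from Hc, the frequency of 6 genes differed by -0.0462 to 0.00575 (MSM mother minus B6 mother), and none passed the test with adjustment. The groups did not overlap in 3 of the 7 genes (Hc, C8b and Cfb), as in 34.3% of all genes. C8b had the largest of these 6 differences, with means of 0.604 and 0.650 and a difference in log2 odds of -0.29 (95% interval -0.53 to -0.04). Its unadjusted limma p was 0.0342 and its adjusted p 0.873. Together with Hc, 2 of the 7 genes had an unadjusted p under 0.05, as 5.23% of all genes did. For C8a the difference was -0.05 (95% interval -0.53 to 0.43) and for Cfb -0.05 (95% interval -0.29 to 0.20). With 2 mice per cross the smallest exact permutation p is 0.333, so all calls between the crosses rest on the variance that limma shares across genes.

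Further genes of the cascade, from lists of 46 other complement genes, place these values beside the rest of the pathway. Of 31 that were listed, 15 had a frequency. At a limma adjusted p under 0.05, 6 of the 15 were toward B6 and 4 toward MSM, beside 22.6% and 13.6% of all genes. The median log2 odds of the 15 was 0.23, beside 0.06 over all genes. In the classical pathway, the proteases of the C1 complex went in both directions. C1s1 (0.623 ± 0.00776, SD, n = 4 mice, adjusted p = 0.00489) and C1rb (0.650 ± 0.0560, adjusted p = 0.0243) were toward B6. C1ra (0.419 ± 0.0131, adjusted p = 0.0089) and C1s2 (0.214 ± 0.0190, adjusted p = 0.0023) were toward MSM. On chromosome 6, C1ra and C1rb are copies of each other, and so are C1s1 and C1s2. Of the 50-base stretches, 50.8% of C1ra, 60.6% of C1rb, 24.3% of C1s1 and 26.9% of C1s2 are shared with another gene, so their frequencies are uncertain. In the lectin pathway Masp1, the partner protease of Masp2, was toward B6 (0.565 ± 0.0169, adjusted p = 0.0193), while the mannose-binding lectin gene Mbl2 was at 0.496 ± 0.00946 (adjusted p = 0.721).
Among regulators, Cfhr2 on chromosome 1 was toward B6 (0.657 ± 0.0125, adjusted p = 0.00456), and 35.3% of its stretches occur in another gene, so its frequency is uncertain. Cr1l, a membrane inhibitor of complement on the same chromosome, was at 0.545 ± 0.0156 (adjusted p = 0.0259), and 16.8% of its stretches are shared. The chains of carboxypeptidase N, which trims complement anaphylatoxins, went apart, with Cpn2 at 0.585 ± 0.00273 (adjusted p = 0.00777) and Cpn1 at 0.425 ± 0.00973 (adjusted p = 0.0103). Susd4, a membrane protein with complement control repeats, had the strongest MSM share of the whole list at 0.0978 ± 0.0277 (adjusted p = 0.00491), and was the only one of them past 0.8 or 0.2. In the terminal pathway C6, C8g and C9 had no frequency, so C8g, the third chain of component 8, could not be compared with C8a and C8b.

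**Figure D3:**
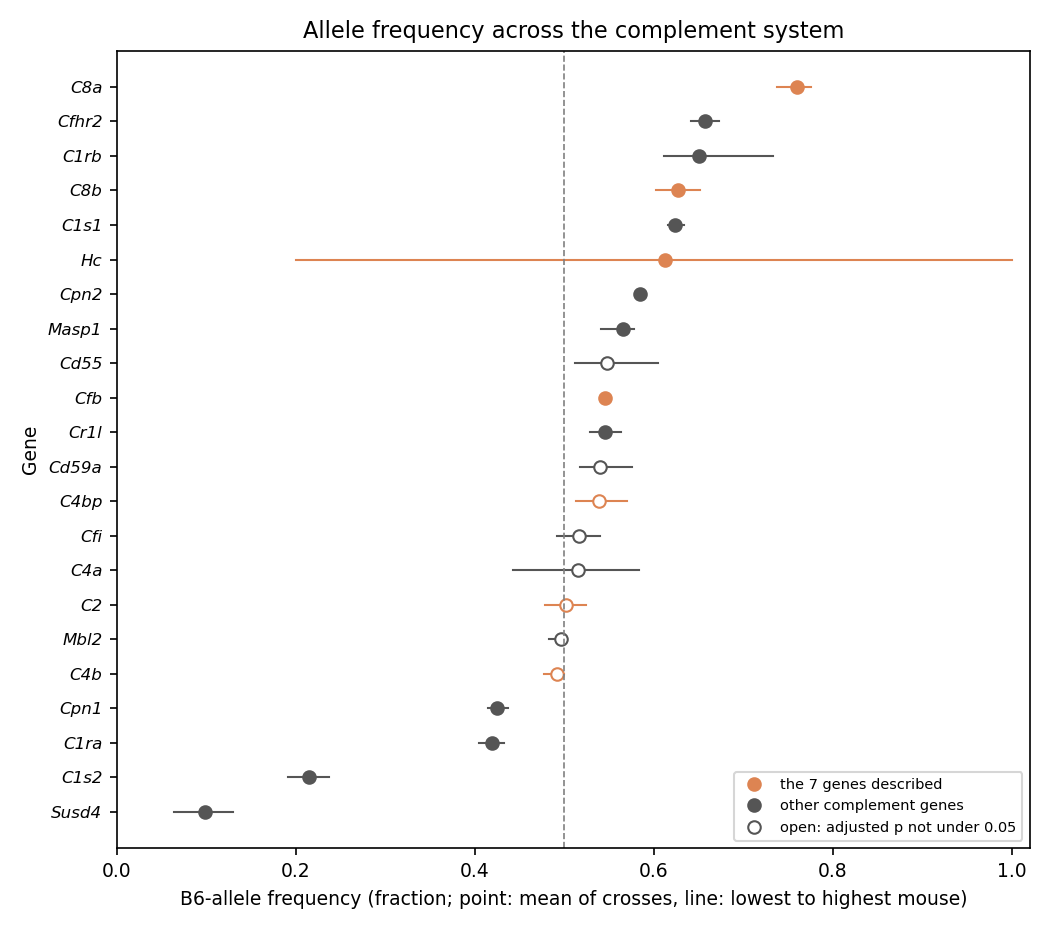
B6-allele frequency (fraction) of the 7 complement genes described above and of 15 others that had one, ordered by their mean over the crosses (points), with lines from the lowest to the highest of 4 mice. Filled points had a limma adjusted p under 0.05, and the 7 genes are in orange. C8a is the highest at 0.760 and Susd4 the lowest at 0.0978, and the line of Hc spans 0.2 to 1.

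Expression levels of the 8 genes ran from 43.1 to 556 on the FPKM scale, which accounts for transcript length. Cfb was the highest at 556 ± 61.9 FPKM (SD, n = 4 mice), rank 161 of the 8797 genes. It was followed by C4b (256 ± 42.5), C4bp (189 ± 12.8), Masp2 (171 ± 13.5), Hc (121 ± 19.4), C8b (64.4 ± 16.1), C2 (45.1 ± 7.25) and C8a (43.1 ± 6.62). The ranges of neighbours in this order overlapped for C4bp and Masp2, C8b and C2, and C2 and C8a. Within mice, C4bp exceeded Masp2 in 4 of 4, by 17.6 ± 7.47 FPKM (mean difference, SD, n = 4 mice). C8b exceeded C2 in 3 of 4 (19.3 ± 20.7 FPKM) and C2 exceeded C8a in 2 of 4 (2.02 ± 13.0 FPKM). Over all 4 mice these pairs did not differ beyond their spread. The sign of C2 minus C8a went by cross. It was -11.15 and -6.43 FPKM in the MSM-mother cross and 9.13 and 16.53 FPKM in the B6-mother cross, which was not tested. C8g, at a mean of 434 FPKM, stood well above its partner chains C8a and C8b.

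**Figure D4:**
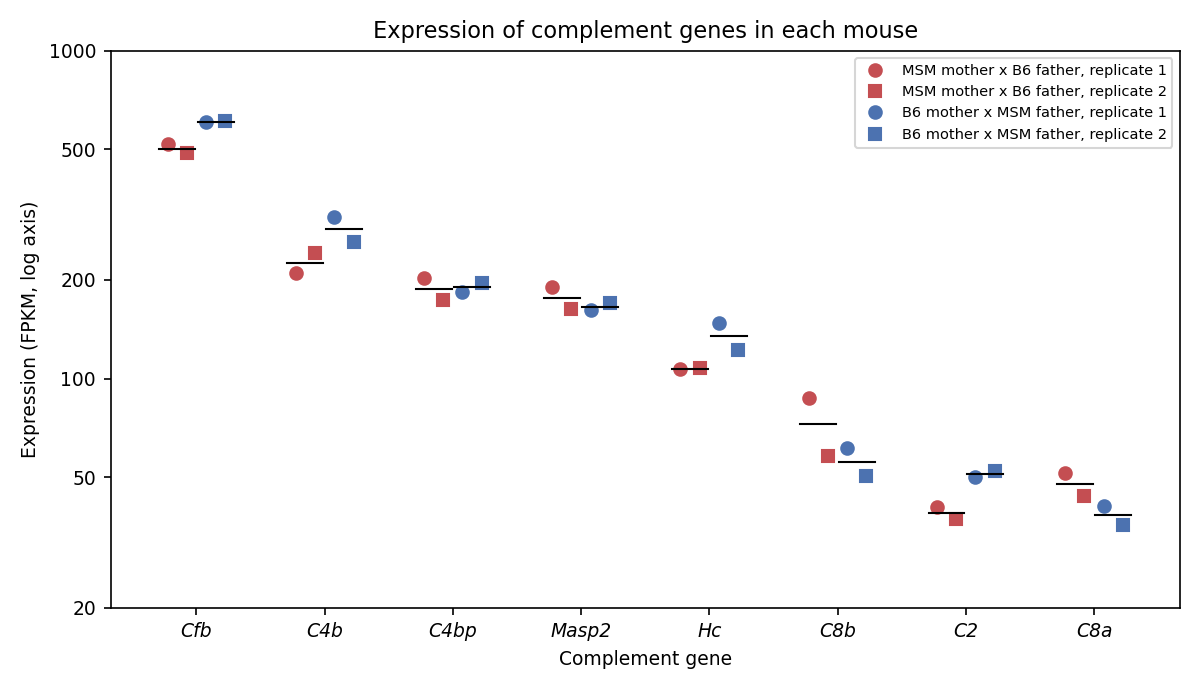
Expression (FPKM, log axis) of the 8 complement genes in each of the 4 mice, ordered by mean, with a short line for the mean of each cross. Cfb lies between 488 and 612 FPKM and C8a between 35.8 and 51.6 FPKM, and C2, Cfb, C4b and Hc are higher in both mice of the B6-mother cross.

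Between the crosses, none of the 8 genes differed in expression at a limma adjusted p under 0.05, and 0.0455% of all genes did. At an unadjusted p under 0.05 there was 1 (C2), as among 8.87% of all genes. C2 was at 40.5 and 37.4 FPKM in the MSM-mother cross and 50.1 and 52.3 FPKM in the B6-mother cross. On the scale of log2(FPKM + 1) it differed by -0.39 (SE 0.13, MSM mother minus B6 mother). Its limma p was 0.0235 unadjusted and 0.495 adjusted. Cfb was at 519 and 488 FPKM against 604 and 612 FPKM, a difference of -0.27 (95% interval -0.67 to 0.13). C4b was at 210 and 242 FPKM against 311 and 261 FPKM, or -0.34 (95% interval -0.77 to 0.09). All convertase genes of the set were thus higher in both mice of the B6-mother cross, without passing the test.
Hc was at 107 and 108 FPKM in the MSM-mother cross and 148 and 122 FPKM in the B6-mother cross (-0.33, 95% interval -0.72 to 0.07). C8a was higher in both mice of the MSM-mother cross, with 51.6 and 43.8 FPKM against 40.97 and 35.8 FPKM (0.31, 95% interval -0.06 to 0.67). C8b, at 87.5 and 58.2 FPKM against 61.4 and 50.3 FPKM, overlapped between the crosses. So did C4bp (202 and 173 against 184 and 196 FPKM) and Masp2 (191 and 163 against 161 and 170 FPKM). In 5 of the 8 genes the crosses did not overlap, as in 42.4% of all genes, 4 being higher in the B6-mother cross (19.4% of all genes) and 1 in the MSM-mother cross (23% of all genes). Leaving out 1 mouse at a time moved the difference of Hc to between -0.47 and -0.19, smallest without replicate 1 of the B6-mother cross. It moved that of C4b to between -0.46 and -0.21, again smallest without that mouse. For C8a it gave 0.19 to 0.42 and for C8b 0.07 to 0.65, both smallest without replicate 1 of the MSM-mother cross. The ends of the 8 intervals ran from -0.77 (C4b) to 0.92 (C8b) on the log2(FPKM + 1) scale. Each is a 95% interval without adjustment over genes, and differences within it are not excluded for that gene. Only the interval of C2 (-0.70 to -0.07) left out 0. Total FPKM over all listed genes was highest in replicate 1 of the MSM-mother cross, at 671875, and 529024 to 572780 in the others, while median ratios between mice were 0.988 to 1.03.

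**Figure D5:**
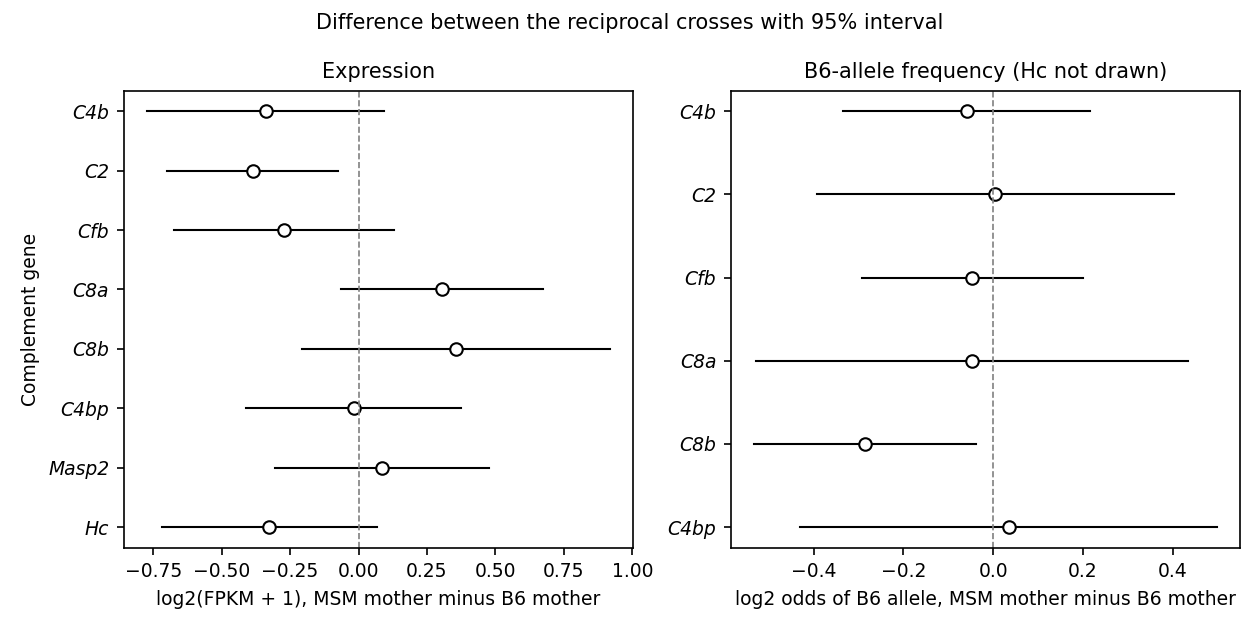
Difference between the crosses, MSM mother minus B6 mother, with 95% intervals from limma, for expression on the scale of log2(FPKM + 1) (8 genes, left) and for the B6 allele in log2 odds (6 genes, right, Hc at 8.42 not drawn). Open points did not pass an adjusted p of 0.05. Intervals cross 0 except those of C2 in expression and C8b in frequency.

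Of the 31 other complement genes listed, none differed in expression between the crosses at a limma adjusted p under 0.05. An unadjusted limma p under 0.05 was found for 2 of the 31 (C1rb and Itgb2), beside 8.87% of all genes. In the classical pathway 8 of the 10 genes, C4b and C2 among them, were higher in both mice of the B6-mother cross (19.4% of all genes). None was higher in both of the MSM-mother cross (23% of all genes). Among the 8 are C1ra, C1rb, C1s1 and C1s2, which share sequence in pairs. The median difference of the 10 genes was -0.30 on the log2(FPKM + 1) scale, beside 0.02 over all genes. In the lectin pathway 0 of 7 genes were higher in both mice of the B6-mother cross and 2 in both of the MSM-mother cross (median 0.08). These counts were 1 and 2 of 6 genes in the terminal pathway (median 0.33) and 4 and 0 of 12 regulators (median -0.09). In the alternative pathway they were 1 and 0 of 2 genes, and among receptors 2 and 0 of 2. The shares over all genes beside each of these pairs of counts are 19.4% and 23%. Beside the complement genes stand markers of liver cell types, none of which was called in expression. Of 9 listed markers of Kupffer cells and macrophages, 4 are themselves complement genes. Higher in both mice of the B6-mother cross were 8 of the 9 (19.4% of all genes). An unadjusted limma p under 0.05 was found for 4 of the 9, beside 8.87% of all genes. The summed level of the 9 was 256 and 219 FPKM in the MSM-mother cross against 319 and 286 FPKM. Markers of sinusoidal endothelium summed to 137 and 132 against 148 and 153 FPKM, and those of hepatocytes to 16894 and 17140 against 13276 and 17167 FPKM. Stellate cell and fibroblast markers had a higher sum in the MSM-mother cross, at 99.7 and 88.9 against 75.2 and 83.1 FPKM. Of the 4 listed, 1 was higher in both mice of the MSM-mother cross and 1 in both of the B6-mother cross. The 1 listed cholangiocyte marker overlapped between the crosses (14.6 and 9.51 against 11.97 and 12.3 FPKM). Of 19 acute-phase genes, which hepatocytes induce in inflammation, 8 were higher in both mice of the MSM-mother cross (23% of all genes). In both of the B6-mother cross 1 was higher (19.4% of all genes). None was called, and 3 of the 19 had an unadjusted limma p under 0.05, beside 8.87% of all genes. The part of marker and acute-phase genes in the levels of complement genes was not tested.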

How the data were processed

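The deposited FPKM and fraction (the B6-allele frequency) are used as the authors made them. The authors used Trim Galore! for trimming, Tophat2 for alignment (1 alignment kept per read, on an mm10 genome with strain SNPs masked), SNPsplit to divide alleles and Cuffdiff to count them, and they deposited FPKM values and the fraction of B6 reads per mouse. Their tool versions are not given in the sources used here. Log2 odds were taken of frequencies held within 0.01 and 0.99. In limma 3.58.1 (R 4.3.3), with a centred cross term, the intercept tested imbalance over 3632 genes and the cross term the difference between crosses. Expression was tested on log2(FPKM + 1) with a variance trend, over the 8797 genes, all of which had a mean FPKM of at least 1. This scale understates changes of low genes. P-values are two-sided, and the Benjamini-Hochberg adjustment runs over all genes tested. Means of frequencies are means of the cross means. Positions came from GENCODE M21 or RefSeq of the same assembly. The limma tests were run on simulated data with planted differences larger than those of the members other than Hc. That check therefore does not bear on differences of the size found for those members. Python 3.11.15 with scipy 1.17.1 gave exact tests.

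Genes named are all members, complement genes called in a test, the nearest genes with a frequency, and the 3 genes most like the one that differed most between crosses. C8g, C6, C9, C4a, Mbl2, Itgb2, Ppap2b and the counts in the 5 Mb window were added after their values were seen. Some complement genes are not reported here and were left out of the lists and their counts. Members and lists were chosen with earlier results of these data known. Other limits, scales, filters, normalizations, a replicate block and leaving out each mouse were tried as alternatives.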

Additional observations from a re-analysis of the deposited data

Results flagged for a closer look

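The B6-allele frequency of Hc differed between the crosses by 0.775 (MSM mother minus B6 mother, 1 and 1 against 0.2 and 0.25, limma adjusted p = 0.0101, and 0.00685 to 0.22 over its alternatives), with both mice of each cross on their own side of 0.5. Both MSM-mother mice of Hc were held at the upper limit of 0.99, so their spread entered this test as 0. Hc also lies in the proximal part of its chromosome, where 1.98% of listed genes had a frequency. The number of allele reads behind its values is unknown, and the part that low numbers play in this difference was not tested. C4a also had its crosses on opposite sides of 0.5, with a difference of 0.103 that did not pass the test (0.60 in log2 odds, SE 0.14, limma adjusted p = 0.873). Mbl2 met the same condition with a difference of -0.0112 (limma adjusted p = 0.944).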

How the results depend on the processing

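Of the values of single genes, 202 kept their direction and side of the threshold over the alternatives, 12 lost a call and 12 changed sign, all 12 in comparisons where the gene had no call. No paired design is stated, and same-numbered mice correlated in their deviations with r of 0.146 in log2 odds and 0.00375 in log2(FPKM + 1), over genes. With a replicate block, 775 genes differed from 0.5 (481 toward B6 and 294 toward MSM, against 1316, 822 and 494), 0 members differed in frequency between crosses (Hc at adjusted p = 0.127), Cfb lost its call against 0.5 (adjusted p = 0.0707), and 285 genes against 4 differed in expression. The cause was not tested. Without each mouse in turn, with the lone mouse assumed to vary like the others, 181 to 514 genes differed from 0.5 (108 to 315 toward B6, 73 to 199 toward MSM) and 2 to 3 members, Cfb being lost in each case. Between the crosses 0 to 6 genes differed in frequency, none of them members (0 each time), and 13 to 21 in expression. A test only on genes beyond the coordinates leaves out Hc, so that 0 members were called between the crosses in frequency and 3 (Cfb, C8a and C8b) against 0.5. At 0.7 and 0.3, 138 and 103 genes passed and 1 member, C8a. With every mouse past 0.8, 44 genes passed. C2 changed sign when each mouse was shifted to a median of 0 (-0.0464 against 0.5, and -0.00716 between crosses), and Masp2 in expression with quantile normalization (-0.0303). Over the omissions of a mouse, C2 ranged from -0.0575 to 0.0766 against 0.5 and from -0.129 to 0.139 between crosses, C4bp from -0.13 to 0.20 and C8a from -0.19 to 0.10 in frequency between crosses, and C4bp from -0.129 to 0.0928 and Masp2 from -0.0269 to 0.201 in expression. The unknown number of allele reads limits all frequencies.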
